A study of Mus musculus with 12 samples.

Results

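The 40 genes described here encode the machinery of autophagy and mitophagy, a list chosen by name for its function and found in full among the 34866 genes of the deposited expression table. They comprise 16 genes of initiation and membrane supply, 15 genes of the conjugation of ubiquitin-like proteins, 8 receptors that bring cargo or mitochondria to the autophagosome, and the transcriptional regulator Tfeb. Polyadenylated RNA was sequenced from mouse embryonic fibroblasts (MEFs) that were either wild type (WT) or labelled knockout (KO) for Sirt3, a mitochondrial deacetylase, to ask whether its loss acts differently in male and female cells. The 12 libraries form 4 groups of 3, WT and KO of each sex. All of the cells came from single embryos of day 13, of 129S1/SvImJ mice for WT and of a separate Sirt3 KO stock, whose background strain is not given in the sources used here, for KO. All were immortalized with a plasmid carrying the SV40 T-antigen, grown to passage 6 and collected 48 h after seeding.

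In autophagy a cell encloses part of its contents in a double membrane, the autophagosome, which then fuses with a lysosome. The Ulk kinase complex starts the process, a lipid kinase complex around Becn1 and Pik3c3 marks the site, and Atg9a, the Atg2 proteins and the Wipi proteins help to supply and recognise membrane. Enzymes resembling those of ubiquitin conjugation then attach Atg8 proteins (the Lc3 and Gabarap families) to lipid, and receptors bind both an Atg8 protein and the cargo. Mitophagy is the removal of mitochondria by this route, through receptors of the outer membrane such as Bnip3 or through the kinase Pink1.

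The values are TPM, shares of transcript molecules that are scaled for transcript length and sum to 1000000 in each library, so that they can be compared between genes but are relative to the other transcripts. The methods give only a target for the sequencing depth, and the depth reached in each library is not kept in TPM. Sirt3 mRNA was not lower in the libraries labelled KO, at 8.88 to 11.0 TPM against 6.59 to 9.07 TPM in male WT and at 7.57 to 9.06 TPM against 7.40 to 8.69 TPM in female WT, and KO below means a library labelled so. WT and KO cells came from separate stocks, so stock cannot be told apart from genotype, however many lines were used. The methods describe wells seeded in triplicate for each genotype and sex but give no number of lines per group. The 3 libraries of a group may thus be cultures of 1 line. In that case line cannot be told apart from genotype and sex, and the p-values measure the spread between cultures. Of 12 fibroblast markers 11 had a mean of at least 1 TPM in every group, whereas Lum stayed under 0.5 TPM. The summed TPM of the fibroblast markers was 10311 to 11428 in male WT, 12452 to 13156 in male KO, 8257 to 8402 in female WT and 10478 to 10743 in female KO libraries, and was thus higher in every KO library than in the WT libraries of its sex. By limma 4 of the 11 tested were higher and 1 lower in male KO and 8 were higher in female KO, with Col1a1, Col3a1, Pdgfrb and Thy1 higher in both, while Vim had an adjusted p of 0.971 in males and 0.307 in females. The summed TPM of 6 epithelial markers was 76.1 to 77.8 in male WT, 7.90 to 8.78 in male KO, 19.8 to 22.9 in female WT and 7.40 to 10.3 in female KO libraries, of which Krt19 gave 66.4 to 68.1, 6.94 to 8.17, 13.4 to 16.0 and 5.15 to 8.35, with Cdh1 under 0.4 TPM in every library. The summed TPM of 5 neural markers was 145.4 to 146.3, 90.7 to 105.8, 171.5 to 183.6 and 108.1 to 127.5 in the same order. Map2 and Nes gave most of it and were lower in KO of both sexes. Tubb3 was higher in male KO (limma adjusted p = 0.035), and Sox2 had means of 14.1, 1.14, 2.20 and 6.31 TPM in the same order. The sums of 5 endothelial, 6 blood and 4 skeletal muscle markers stayed at or under 5.95, 1.87 and 6.60. Of the muscle markers, Des was 5.71 to 6.60 TPM in female WT and at or under 0.344 TPM in every other library. The part of these differences in the results below was not tested, and since the samples are bulk RNA, fewer cells of a type and less RNA per cell cannot be told apart.

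All 40 genes reached a mean of 1 TPM over the 12 libraries, the filter for testing. The lowest was Atg10, the conjugating enzyme for Atg12, at 2.72 TPM, and the highest was Sqstm1, the cargo receptor p62, at 309.1 TPM, followed by Gabarap at 197.3, Map1lc3a at 123.0, Becn1 at 116.2 and Map1lc3b at 74.5 TPM. Within most genes the range over libraries was narrow: the highest library stood a median of 1.46 times above the lowest, with extremes of 1.12 and 3.16 times, the latter in Bnip3. The residual SD on the log2(TPM+1) scale had a median of 0.121 over the 40 genes, close to the 0.122 over all 12504 tested genes. The summed level of the 40 genes was 1682 to 1733 TPM in male WT, 1721 to 1761 in male KO, 1686 to 1728 in female WT and 1636 to 1687 in female KO libraries.

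**Figure D1:**
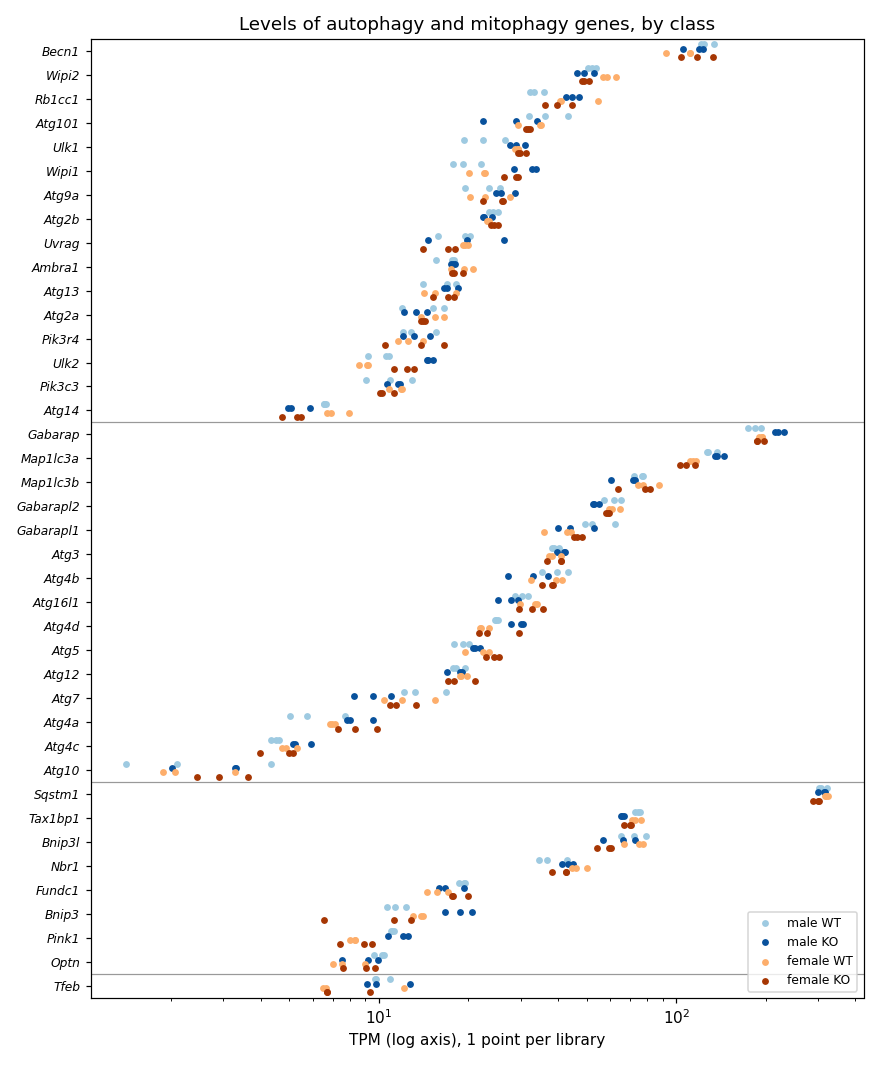
TPM of each of the 40 genes on a log axis, with 1 point per library and 3 libraries per group (light blue male WT, dark blue male KO, light orange female WT, brown female KO). Genes are ordered by mean within initiation and membrane supply, conjugation, receptors and Tfeb, separated by lines, and the means run from 2.72 TPM for Atg10 to 309.1 TPM for Sqstm1.

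Between male KO and male WT MEFs, 7 of the 40 genes (17.5%) had an adjusted p under 0.05 by limma with Benjamini-Hochberg adjustment over all tested genes, 6 higher and 1 lower in KO. Over all 12504 genes the share was 21.6%, so the members' share lay near the background. In females 4 genes (10%) passed, 2 in each direction, against 11.5% of all genes. The sex by genotype interaction, which is the male KO effect minus the female KO effect, passed for 3 members (7.5%) against 13.0% of all genes. At an unadjusted p under 0.05 the numbers were 12, 9 and 11 members (30%, 22.5% and 27.5%), against 35.1%, 27.2% and 25.2% of all genes. The median size of the log2 fold change was 0.15 for the members and 0.17 for all genes in males, and 0.10 and 0.13 in females. The members that passed were Bnip3, Wipi1, Ulk2, Rb1cc1, Gabarap, Atg4d and Tax1bp1 in males and Ulk2, Wipi1, Wipi2 and Bnip3l in females, so Ulk2 and Wipi1 passed in both sexes. The other 31 genes passed in neither sex and not in the interaction. For the members that did not pass, the 95% interval of the log2 fold change reached a median of 0.25 to either side in males and 0.22 in females, with extremes of 0.74 and 0.58.

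**Figure D2:**
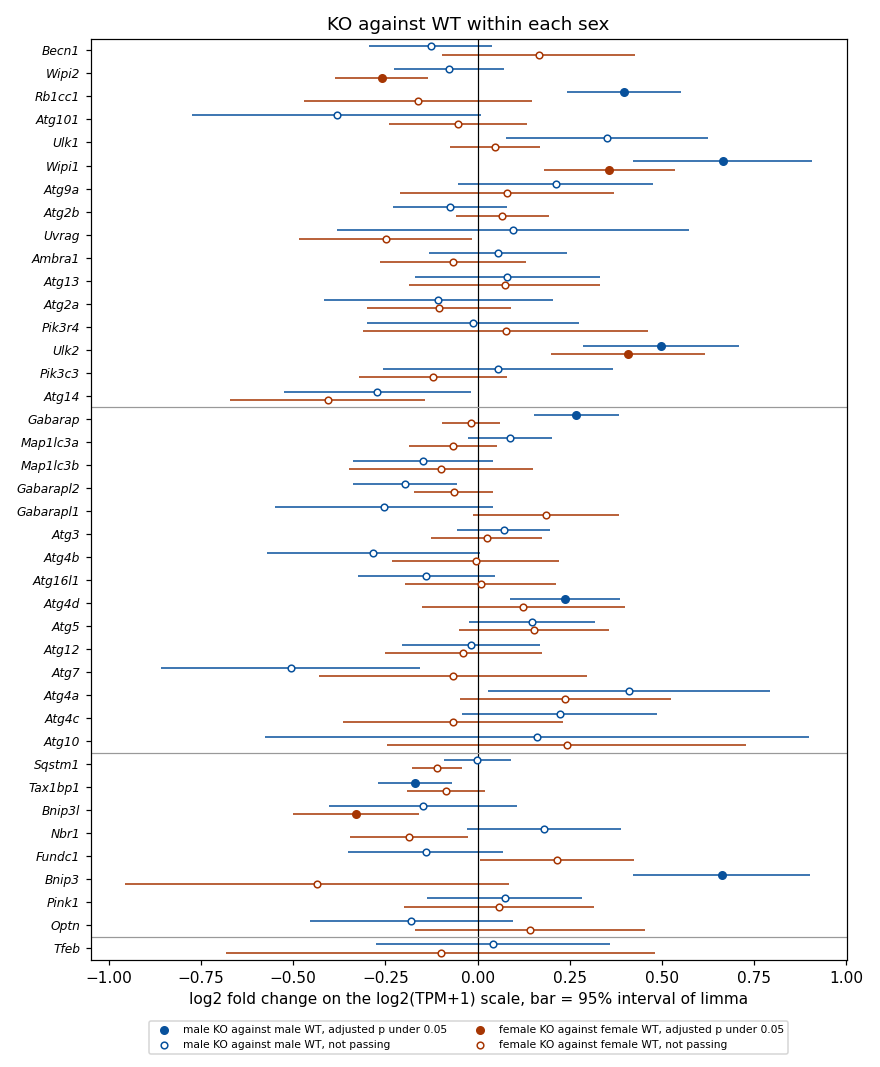
Log2 fold change of KO against WT on the log2(TPM+1) scale for the 40 genes in males (blue) and females (brown), with bars for the 95% interval of limma and filled points for an adjusted p under 0.05. In males 7 points are filled, 6 of them to the right of 0, and in females 4 are filled, 2 on each side.

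The 3 KO and 3 WT libraries did not overlap for 14 members in males, 10 above and 4 below WT, while 40% of all genes were so separated. In females 15 members did not overlap, 6 above and 9 below, against 33.6% of all genes. By fitted value alone, 11 members were higher in KO in both sexes, 12 lower in both and 17 of opposite sign.

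Bnip3 is an outer mitochondrial membrane receptor that binds Atg8 proteins and is a known target of hypoxia-inducible factors, and Ulk2 is a kinase of the initiation complex. The bases before the transcription start of these 2 genes are shown because Bnip3 had the largest male KO effect among the receptors and Ulk2 passed the test in both sexes. Wipi1 also passed in both sexes, and its window is not shown. Both windows hold 250 bases from RefSeq on GRCm38.p6, read 5′ to 3′ on the strand of the gene. Capitals mark ACGTG or GCGTG, the core letters of hypoxia response elements, on either strand (as CACGT or CACGC on the other).
Bnip3, chr7:138909507-138909756, minus strand: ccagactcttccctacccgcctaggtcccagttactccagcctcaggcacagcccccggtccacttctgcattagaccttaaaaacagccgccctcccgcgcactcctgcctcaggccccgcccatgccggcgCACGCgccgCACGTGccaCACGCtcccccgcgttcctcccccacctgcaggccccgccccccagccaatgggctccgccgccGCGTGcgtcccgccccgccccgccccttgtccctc
Ulk2, chr11:61855093-61855342, minus strand: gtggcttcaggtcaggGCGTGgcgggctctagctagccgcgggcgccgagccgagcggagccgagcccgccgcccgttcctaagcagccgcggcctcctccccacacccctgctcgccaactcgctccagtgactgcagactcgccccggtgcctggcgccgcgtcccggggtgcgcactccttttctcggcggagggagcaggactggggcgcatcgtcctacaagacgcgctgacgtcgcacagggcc

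The Bnip3 window held 5 matches in 4 runs, from -117 to -113, -108 to -103, -99 to -95 and -35 to -31 bases from the start, of which the second is the palindrome CACGTG and counts on both strands. CACGTG is also the E-box core that Tfeb and its relatives bind. The Ulk2 window held 1 match, from -234 to -230. Windows were found for 33 of the 40 members (39 windows, as some genes have several), and Atg12, Atg16l1, Becn1, Bnip3l, Map1lc3a, Pik3c3 and Rb1cc1 had none. The hypoxia core letters were present in 31 of the 39 member windows (79.5%), in 56.3% of the 12084 windows of tested genes and in 38.6% of all 32851 windows. The windows of members had a median GC content of 59.6%, those of tested genes 60.0% and all windows 52.4%. CACGTG lay in 4 member windows (10.3%), those of Atg3, Atg5, Atg7 and Bnip3, against 8.32% and 6.02%. The letters TGATGNAAN of the amino acid response element lay in 0 member windows, 1.91% of the windows of tested genes and 3.44% of all windows. Such matches describe the letters and not binding.

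Among the 5 genes of the Ulk complex, Ulk2 (ENSMUSG00000004798.14, chromosome 11 of GRCm38, 61775649 to 61855073) was higher in KO MEFs of both sexes. Its level in replicates 1 to 3 was 10.6, 10.8 and 9.22 TPM in male WT and 14.6, 14.5 and 15.2 TPM in male KO libraries. In females it was 8.59, 9.14 and 9.17 TPM in WT and 12.4, 11.2 and 13.1 TPM in KO. Every KO library lay above every WT library, in both sexes. The log2 fold change of Ulk2 was 0.50 ± 0.090 (SE, n = 3 and 3 libraries, limma adjusted p = 0.00878) in males and 0.41 ± 0.088 (SE, limma adjusted p = 0.0307) in females, and the interaction of 0.090 had a 95% interval from -0.17 to 0.35 (limma adjusted p = 0.703). The female value of Ulk2 lost the threshold in 6 of 14 alternatives, with the replicate block and without any one of WT replicates 1, 2 or 3 or KO replicates 1 or 3, at log2 fold changes of 0.36 to 0.46 over all alternatives and limma adjusted p up to 0.0958.

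Rb1cc1, also called Fip200, is the scaffold of the complex (ENSMUSG00000025907.14, chromosome 1, 6206197 to 6276648). Its level was 35.8, 33.3 and 32.3 TPM in male WT and 42.6, 47.1 and 44.7 TPM in male KO, and 40.5, 54.5 and 40.9 TPM in female WT and 44.5, 36.3 and 39.7 TPM in female KO libraries. The male groups did not overlap, and the female groups did, with the highest of all values in female WT replicate 2. Rb1cc1 was higher in male KO by 0.40 ± 0.065 on the log2 scale (SE, limma adjusted p = 0.0062), a fold of 1.32. In females the log2 fold change was -0.16 ± 0.13 (SE, limma adjusted p = 0.477), and -0.024 without WT replicate 2. The interaction was 0.56 ± 0.15 (SE, limma adjusted p = 0.0345), and 0.42 to 0.63 over all 19 alternatives. It missed the threshold in 9 of 19 alternatives, at 0.49 to 0.56: without the filter or the mean-variance trend, with the replicate block, and without male WT replicates 2 or 3, male KO replicates 2 or 3 or female KO replicates 2 or 3. The male WT libraries of Rb1cc1 were all lower than the female WT libraries, by 0.40 on the log2 scale (limma adjusted p = 0.0735).

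Ulk1, the other kinase of the complex (ENSMUSG00000029512.11, chromosome 5, 110784488 to 110810097), stood at 19.4, 26.6 and 22.4 TPM in male WT and 28.9, 31.0 and 27.7 TPM in male KO libraries. In females all 6 libraries lay between 28.8 and 31.2 TPM. The male groups did not overlap, but the log2 fold change of 0.35 ± 0.12 (SE) missed the threshold (limma adjusted p = 0.0744), and the female one was 0.047 ± 0.051 (SE, limma adjusted p = 0.602). A difference of 0.30 between the sexes also missed it (limma adjusted p = 0.171). The other 2 genes, Atg13 and Atg101, adaptors that join the kinase to Rb1cc1, did not pass in either sex. Atg101 had a male log2 fold change of -0.38 with a wide spread, at 22.4 to 34.0 TPM in KO against 31.9 to 43.3 TPM in WT (limma adjusted p = 0.151).

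Of the 6 class III lipid kinase complex genes (Becn1, Pik3c3, Pik3r4, Atg14, Uvrag and Ambra1), limma called none in either sex or the interaction. Over all genes 21.6%, 11.5% and 13.0% were called in males, females and the interaction. At an unadjusted p under 0.05 there were 1 of the 6 in males, 2 in females and 0 in the interaction. The shares over all genes were 35.1%, 27.2% and 25.2%. Pik3c3 is the lipid kinase itself and Pik3r4 its regulatory subunit. The largest differences were those of Atg14, the subunit that directs the complex to the forming autophagosome. Its level was 6.64, 6.55 and 6.55 TPM in male WT libraries, 4.96, 5.84 and 5.06 in male KO, 6.92, 7.93 and 6.67 in female WT and 5.30, 4.73 and 5.46 TPM in female KO libraries. Every KO library lay below every WT library of its sex, while the log2 fold changes of -0.27 (limma adjusted p = 0.122) and -0.41 (limma adjusted p = 0.0632) missed the threshold. Becn1, the scaffold of the complex, ranged from 92.2 to 134.4 TPM with overlapping groups in both sexes. It shares 3104 exonic bases with Cntd1 on the opposite strand, which was at 0.194 TPM.

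Of the 5 genes of membrane supply, Wipi1 and Wipi2 encode proteins that bind the lipid product of that complex. Wipi1 (ENSMUSG00000041895.15, chromosome 11, 109573331 to 109611967) had 17.7, 22.0 and 19.2 TPM in male WT and 28.5, 33.8 and 32.7 TPM in male KO, and 22.7, 22.6 and 20.2 TPM in female WT and 29.3, 26.4 and 29.0 TPM in female KO libraries. In both sexes the groups were apart. The log2 fold change was 0.66 ± 0.10 in males (SE, limma adjusted p = 0.00476), a fold of 1.58, and 0.36 ± 0.074 in females (SE, limma adjusted p = 0.0271), a fold of 1.28. The difference between the sexes of 0.31, with a 95% interval from 0.022 to 0.59, missed the threshold (limma adjusted p = 0.164). The female value of Wipi1 was 0.30 to 0.40 over the alternatives and lost the threshold in 7 of 14, without the filter, with the replicate block and without WT replicates 1, 2 or 3 or KO replicates 1 or 3.

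Wipi2, which recruits Atg16l1 (ENSMUSG00000029578.15, chromosome 5, 142627698 to 142670588), went the other way in females. Its level was 56.8, 58.3 and 62.9 TPM in female WT and 48.3, 48.8 and 51.0 TPM in female KO libraries, with no overlap, and 52.2, 53.7 and 50.4 TPM in male WT and 46.2, 52.7 and 49.1 TPM in male KO libraries, which overlapped. The log2 fold change of Wipi2 was -0.26 ± 0.053 in females (SE, limma adjusted p = 0.0258) and -0.078 ± 0.063 in males (SE, limma adjusted p = 0.425), and the sexes differed by 0.18, short of the threshold (limma adjusted p = 0.191). The female call was lost without the filter, the mean-variance trend, WT replicates 2 or 3 or any one of the 3 KO replicates, and with the replicate block (8 of 14 alternatives), at -0.22 to -0.29 over all 14. The lipid scramblase Atg9a and the lipid transfer proteins Atg2a and Atg2b did not pass, with log2 fold changes between -0.11 and 0.21 in both sexes.

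In the conjugation machinery 2 of 15 genes (13.3%, against 21.6% of all genes) passed in males, both higher in KO, and in females limma called 0 (against 11.5%), with 0 also at an unadjusted p under 0.05. Gabarap, an Atg8 protein (ENSMUSG00000018567.14, chromosome 11, 69991143 to 69994951), had 192.6, 174.9 and 184.6 TPM in male WT and 231.2, 219.4 and 214.6 TPM in male KO libraries. Its level was 194.6, 194.5 and 189.5 TPM in female WT and 187.6, 187.0 and 196.9 TPM in female KO libraries. The male groups were apart and the female groups overlapped. Gabarap rose in male KO by 0.27 ± 0.049 on the log2 scale (SE, limma adjusted p = 0.00944), a fold of 1.20, and its female value was -0.018 ± 0.033 (SE, limma adjusted p = 0.776). The interaction was 0.29 ± 0.059 (SE, limma adjusted p = 0.00778), and its adjusted p ran from 0.00495 to 0.0266 over 19 alternatives.

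Among the other 4 Atg8 genes none passed in a KO comparison, against 21.6% of all genes in males and 11.5% in females. Gabarapl2 was 65.2, 61.7 and 57.3 TPM in male WT and 52.8, 52.4 and 54.8 TPM in male KO libraries, which did not overlap, at a log2 fold change of -0.20 (limma adjusted p = 0.0568). Its female KO libraries also lay below WT, at 58.2 to 59.4 against 59.5 to 64.7 TPM (log2 fold change -0.065, limma adjusted p = 0.41). Gabarapl1 had fitted values of -0.25 in males and 0.18 in females, and the sexes differed by -0.44, short of the threshold (limma adjusted p = 0.107). Map1lc3b, the usual marker of autophagosomes, was 72.3 to 77.4 TPM in male WT, 60.1 to 72.8 in male KO, 74.6 to 87.4 in female WT and 63.7 to 81.6 TPM in female KO libraries, at log2 fold changes of -0.15 and -0.10. The summed level of the 5 Atg8 genes was 491.3 to 524.4 TPM in male WT, 509.2 to 539.8 in male KO, 478.9 to 500.4 in female WT and 461.7 to 498.4 TPM in female KO libraries, which overlapped in both sexes.

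Atg4d, one of 4 proteases that cut Atg8 proteins (ENSMUSG00000002820.6, chromosome 9, 21265293 to 21277772), was the second conjugation gene to pass. Its level was 24.9, 24.5 and 25.2 TPM in male WT and 27.8, 30.6 and 30.0 TPM in male KO libraries. Female WT libraries had 21.8, 22.1 and 23.5 TPM and female KO libraries 21.7, 23.1 and 29.6 TPM, the highest being replicate 3. The male groups were apart, at a log2 fold change of 0.24 ± 0.063 (SE, limma adjusted p = 0.0363), and the female value was 0.12 ± 0.12 (SE, limma adjusted p = 0.539). The male call of Atg4d was lost in 7 of 14 alternatives, with the replicate block, with all 12 libraries in one fit and without WT replicates 1, 2 or 3 or KO replicates 2 or 3, at 0.21 to 0.28 over the alternatives. Atg4d shares 1405 exonic bases with Kri1 on the opposite strand, which was at 44.0 TPM, and whether the counting used strand is not given in the sources used here. Rb1cc1, Tax1bp1 and Bnip3 also share 558, 160 and 504 exonic bases with opposite-strand genes, for which the deposited data list no level.

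The lowest fitted value in males was that of Atg7, the activating enzyme of both conjugation reactions. Its level was 16.8, 12.1 and 13.3 TPM in male WT and 10.9, 9.52 and 8.24 TPM in male KO libraries, with no overlap. At a log2 fold change of -0.51 with a 95% interval from -0.86 to -0.16, it stood just outside the threshold (limma adjusted p = 0.0513). Atg7 had a female log2 fold change of -0.067 and an interaction of -0.44 (limma adjusted p = 0.253). Atg4a and Atg4c were also apart in males, at log2 fold changes of 0.41 (limma adjusted p = 0.121) and 0.22 (limma adjusted p = 0.207). In females Atg4a was apart too, with KO above WT, at 0.24 (limma adjusted p = 0.26), while Atg4c overlapped. Atg5, Atg12 and Atg16l1, the parts of the complex that places Atg8 proteins on the membrane, had male log2 fold changes of 0.15, -0.018 and -0.14 and female ones of 0.15, -0.039 and 0.0080.

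**Figure D3:**
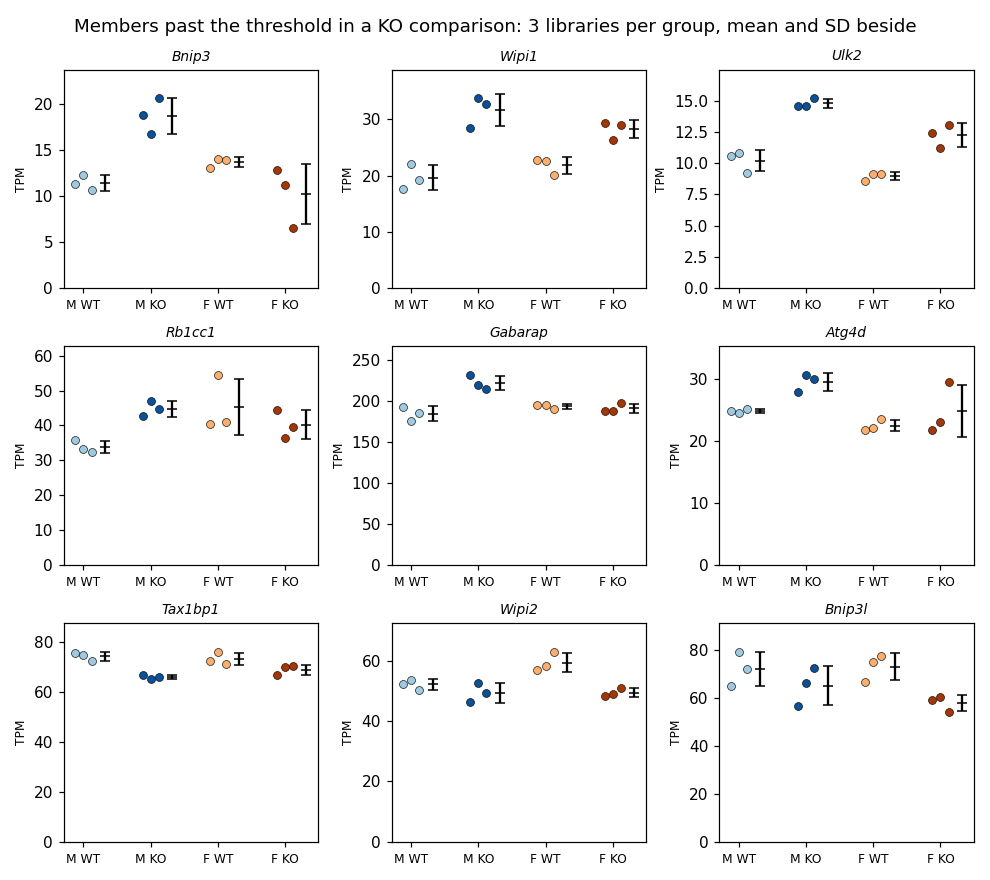
TPM in each library of the 9 genes with an adjusted p under 0.05 in a KO comparison, with 3 points per group (M male, F female) and the mean and SD beside them, on axes from 0. For Ulk2 and Wipi1 the KO libraries lie above WT in both sexes, and for Bnip3, Gabarap, Rb1cc1 and Atg4d in males. For Tax1bp1 the KO libraries lie below WT in both sexes, and for Bnip3, Wipi2 and Bnip3l in females.

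Bnip3 (ENSMUSG00000078566.8, chromosome 7, 138890836 to 138909519, minus strand), whose upstream sequence is printed above, had the largest interaction of the 40 genes. Its level was 11.3, 12.3 and 10.7 TPM in male WT and 18.7, 16.7 and 20.6 TPM in male KO libraries, and 13.0, 14.0 and 13.8 TPM in female WT and 12.8, 11.2 and 6.52 TPM in female KO libraries. Every male KO library lay above male WT, and every female KO library lay below female WT, with replicate 3 far under the other two. The log2 fold change of Bnip3 was 0.66 ± 0.10 in males (SE, limma adjusted p = 0.00463), a fold of 1.58, and -0.43 ± 0.22 in females (SE, limma adjusted p = 0.258). Without female KO replicate 3 the female value was -0.17 (limma adjusted p = 0.339). The interaction was 1.10 ± 0.26 (SE, limma adjusted p = 0.0149), at 0.83 to 1.27 over 19 alternatives with adjusted p up to 0.0389. The male call was kept in all 14 alternatives, at 0.59 to 0.74.

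Bnip3l, also called Nix and the closest relative of Bnip3 (ENSMUSG00000022051.15, chromosome 14, 66985239 to 67008877), was the more abundant, at a mean of 67.1 TPM over all libraries against 13.5 TPM for Bnip3. Its level was 65.1, 79.3 and 72.1 TPM in male WT and 56.5, 66.3 and 72.6 TPM in male KO libraries, which overlapped. Female WT libraries had 66.6, 75.1 and 77.4 TPM and female KO libraries 59.3, 60.3 and 54.0 TPM, which did not. The female log2 fold change of Bnip3l was -0.33 ± 0.071 (SE, limma adjusted p = 0.0308) and the male one -0.15 ± 0.11 (SE, limma adjusted p = 0.375), and the sexes differed by 0.18, short of the threshold (limma adjusted p = 0.47). The female call was lost in 8 of 14 alternatives: without the filter, without the mean-variance trend, with the replicate block, without WT replicates 2 or 3 and without any one of the 3 KO replicates, at -0.28 to -0.39 over all 14.

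Fundc1, the third outer membrane receptor, and Pink1 did not pass in a KO comparison. Fundc1 was 14.5, 15.6 and 17.0 TPM in female WT and 17.6, 17.7 and 20.0 TPM in female KO libraries, which did not overlap, at a log2 fold change of 0.21 (limma adjusted p = 0.173), and the male value was -0.14 (limma adjusted p = 0.307). For Pink1 the male fitted value was 0.073 and the female one 0.058 on the log2 scale.

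Of the 4 receptors of ubiquitinated cargo, Tax1bp1 passed in males (ENSMUSG00000004535.12, chromosome 6, 52713729 to 52766780). Its level was 75.8, 74.7 and 72.4 TPM in male WT and 66.7, 65.0 and 65.9 TPM in male KO libraries, and 72.5, 76.1 and 71.1 TPM in female WT and 66.6, 69.8 and 70.3 TPM in female KO libraries. The groups were apart in both sexes. Tax1bp1 was lower in male KO by a log2 fold change of -0.17 ± 0.043 (SE, limma adjusted p = 0.0299), a fold of 0.889, and had a female value of -0.086 ± 0.044 (SE, limma adjusted p = 0.265). The male call was lost in 10 of 14 alternatives: without any one of the 6 male libraries, without the mean-variance trend, with the replicate block, and with median-of-ratios scaling or quantile normalization, where the value was -0.15 with each (limma adjusted p = 0.0748 and 0.0551).

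Nbr1, another cargo receptor (ENSMUSG00000017119.19, chromosome 11, 101552149 to 101581951), had 34.5, 36.7 and 43.1 TPM in male WT and 41.2, 43.3 and 45.0 TPM in male KO libraries. Female WT libraries of Nbr1 had 44.5, 50.0 and 46.2 TPM and female KO libraries 38.2, 42.6 and 42.6 TPM. The male groups overlapped and the female KO libraries all lay below WT. The log2 fold change of Nbr1 was 0.18 ± 0.089 in males (SE, limma adjusted p = 0.201) and -0.18 ± 0.067 in females (SE, limma adjusted p = 0.132), and the interaction of 0.36 missed the threshold (limma adjusted p = 0.0625). Sqstm1 had 299.6 to 317.4 TPM in male KO and 302.9 to 320.6 TPM in male WT libraries, and 288.5 to 301.2 TPM in female KO against 315.8 to 324.9 TPM in female WT libraries, a log2 fold change of -0.11 that missed the threshold (limma adjusted p = 0.0572). Optn did not pass in either sex. The summed level of all 8 receptors was 506.7 to 513.3 TPM in female KO and 547.0 to 566.3 TPM in female WT libraries, whereas in males it was 519.4 to 555.4 TPM in KO and 529.8 to 563.9 TPM in WT.

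Tfeb, a transcription factor of lysosomal and autophagy genes, was 9.10 to 12.7 TPM in male KO, 9.69 to 10.9 in male WT, 6.69 to 9.32 in female KO and 6.50 to 12.1 TPM in female WT libraries. The groups overlapped in both sexes, at log2 fold changes of 0.041 (limma adjusted p = 0.864) and -0.10 (limma adjusted p = 0.837).

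Between male WT and female WT MEFs, 2 members passed (5.0%), both higher in males, against 12.8% of all genes, and 12 did so at an unadjusted p under 0.05 (30%, against 27.6% of all genes). Map1lc3a, an Lc3 protein, was 126.9, 137.0 and 127.8 TPM in male WT and 116.5, 113.7 and 111.4 TPM in female WT libraries, a log2 difference of 0.19 ± 0.043 (SE, limma adjusted p = 0.0287). Pink1, the kinase that marks damaged mitochondria, was 11.1, 11.3 and 11.0 TPM in male WT and 7.97, 8.28 and 8.31 TPM in female WT libraries, a difference of 0.40 ± 0.078 (SE, limma adjusted p = 0.0176). The WT groups were apart for both genes. The Map1lc3a call was lost in 8 of 14 alternatives, without the filter, the trend, male WT replicates 2 or 3 or any one female WT replicate and with the replicate block, and the Pink1 call in 7 of 14, with the block and without any one of the 6 libraries, at 0.16 to 0.22 and 0.38 to 0.44 over the alternatives. These comparisons share the WT libraries with the KO comparisons above.

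Further genes of the route were read from 4 lists beyond the 40. Of 32 tested autophagy genes 6 passed in males (18.8%, against 21.6% of all genes), 3 in each direction, and 1 in females (3.13%, against 11.5%). The male number was 3 to 5 without any one male library. Epg5, which tethers autophagosomes to lysosomes, was 18.5, 20.2 and 19.6 TPM in male WT and 8.03, 10.0 and 8.88 TPM in male KO libraries, a log2 fold change of -1.04 (limma adjusted p = 0.000518). Epg5 was 9.84, 10.2 and 9.72 TPM in female WT and 8.59, 7.99 and 8.77 TPM in female KO libraries, at -0.21 (limma adjusted p = 0.161), so that the male WT libraries stood apart from the other 9. Retreg1, a receptor for autophagy of the endoplasmic reticulum, was 7.12, 8.09 and 7.53 TPM in male WT and 10.7, 12.3 and 12.8 TPM in male KO libraries, at 0.59 (limma adjusted p = 0.00815). Female WT libraries of Retreg1 had 6.38, 8.58 and 6.08 TPM and female KO libraries 3.85, 4.94 and 4.93 TPM, at -0.52 (limma adjusted p = 0.0873). Wdr45, an X-linked relative of the Wipi genes, was 41.0, 46.5 and 38.6 TPM in female WT and 24.9, 28.4 and 29.0 TPM in female KO libraries, at -0.60 (limma adjusted p = 0.00942). Male WT libraries of Wdr45 had 31.1, 32.7 and 28.7 TPM and male KO libraries 30.0, 33.6 and 28.0 TPM, at -0.018 (limma adjusted p = 0.907).

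Of 23 further mitophagy genes 4 passed in males (17.4%, against 21.6% of all genes), all lower in KO, and 2 in females (8.70%, against 11.5%), or 2 to 4 and 0 to 1 without any one library of the sex. The 4 were Nipsnap1, which helps to recruit receptors to damaged mitochondria, the small GTPase Rab7, the deubiquitinase Usp15 and the prohibitin Phb2, with log2 fold changes of -0.41, -0.32, -0.31 and -0.26 (limma adjusted p = 0.0352, 0.00161, 0.0158 and 0.00149). Nipsnap1 was 14.3, 13.9 and 13.4 TPM in male WT and 9.97, 11.7 and 9.06 TPM in male KO libraries. It was also lower in female KO, at 10.6, 9.78 and 11.9 TPM against 16.4, 15.6 and 16.4 TPM in female WT (log2 fold change -0.55, limma adjusted p = 0.0125), while its relative Nipsnap2 was higher there by 0.29 on the log2 scale (limma adjusted p = 0.033). Rab7 was 287.4, 295.2 and 302.6 TPM in male WT and 240.1, 241.5 and 228.4 TPM in male KO libraries, and the female groups overlapped, at 322.2, 309.1 and 314.9 TPM in WT and 342.2, 288.2 and 327.6 TPM in KO. Usp15 was 83.7, 74.8 and 75.7 TPM in male WT and 61.6, 66.8 and 60.2 TPM in male KO libraries, and 78.2, 66.1 and 76.0 TPM in female WT and 69.8, 70.7 and 67.3 TPM in female KO libraries, which overlapped.

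Of 30 lysosome genes 5 passed in males (16.7%, against 21.6% of all genes), 4 higher and 1 lower, and 5 in females (16.7%, against 11.5%), all lower. Without any one library of the sex the numbers were 3 or 4 in males and 1 to 3 in females. In males Npc1 and Lipa, which handle cholesterol and cholesteryl esters in the lysosome, were higher by 0.61 and 0.58 on the log2 scale (limma adjusted p = 0.00394 and 0.00346). Npc1 was 13.4, 15.1 and 13.0 TPM in male WT and 19.9, 22.7 and 22.4 TPM in male KO, and Lipa 17.9, 15.1 and 15.8 TPM and 24.9, 25.4 and 23.9 TPM. In females Npc1 was 16.1, 16.3 and 16.8 TPM in WT and 17.3, 17.8 and 18.5 TPM in KO, at a log2 difference of 0.12 (limma adjusted p = 0.285), and that of Lipa was 0.12 (limma adjusted p = 0.344). The other 3 were Naglu and Lamp2, higher by 0.41 and 0.21, and the peptidase Tpp1, at -0.28 (limma adjusted p = 0.0366, 0.0146 and 0.0449). Those in females included Tpp1 at -0.46, the cathepsins Ctsa at -0.25 and Ctsd at -0.13 and the membrane protein Lamp1 at -0.11 (limma adjusted p = 0.0202, 0.0106, 0.0311 and 0.0236). Tpp1 was 76.5, 88.3 and 80.7 TPM in male WT, 61.6, 71.8 and 69.0 TPM in male KO, 97.0, 87.5 and 106.9 in female WT and 76.2, 69.8 and 65.1 TPM in female KO libraries, apart in both sexes. The interaction passed for 8 of the 30 lysosome genes (26.7%, against 13.0% of all genes), 7 of them above 0, and its fitted value was above 0 for 27 of the 30. The median interaction over the list was 0.11, against 0.0047 over all tested genes. The WT groups, which enter the interaction, also differed for this list. Of the 30 genes 7 passed between male WT and female WT (23.3%, against 12.8% of all genes), 3 higher and 4 lower in males. The fitted WT difference was below 0 for 23 genes and above 0 for 7, at a median of -0.093, against -0.018 over all tested genes. Its part in the interaction was not tested.

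Of 29 nutrient and energy regulators 5 passed in males (17.2%, against 21.6% of all genes) and 3 in females (10.3%, against 11.5%), or 3 to 6 and 0 to 1 without any one library of the sex. Mitf, a relative of Tfeb, was 1.67, 2.43 and 1.56 TPM in male WT and 3.69, 3.61 and 4.34 TPM in male KO libraries, at a log2 fold change of 0.77 (limma adjusted p = 0.0184). Female WT libraries of Mitf had 1.44, 1.92 and 1.78 TPM and female KO libraries 3.63, 2.36 and 2.63 TPM, at 0.50 (limma adjusted p = 0.119). Sesn2 and Ddit4, which restrain the mTORC complex that holds autophagy back, were higher in male KO by 0.57 and 0.63 (limma adjusted p = 0.00171 and 0.00044). Sesn2 was 18.6, 20.0 and 17.7 TPM in male WT, 27.6, 29.4 and 28.3 TPM in male KO, 22.5, 25.3 and 21.1 in female WT and 26.6, 26.9 and 26.8 TPM in female KO libraries. Ddit4 had 39.1, 38.6 and 42.5 TPM in male WT, 61.2, 61.5 and 64.5 TPM in male KO, 46.8, 44.3 and 42.9 in female WT and 60.4, 55.6 and 52.5 TPM in female KO libraries. For both genes the KO libraries lay above WT in each sex. Ddit4 was higher in female KO as well, at 0.32 (limma adjusted p = 0.0238), and Sesn2 had a female value of 0.22 (limma adjusted p = 0.123). The kinase Stk11 and the apoptosis inhibitor Bcl2l1 were lower in male KO, at -0.22 and -0.37 (limma adjusted p = 0.0311 and 0.015). In female KO the regulators Tsc2 and Mlst8 were lower, at -0.36 and -0.26 (limma adjusted p = 0.0207 and 0.0479).

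**Figure D4:**
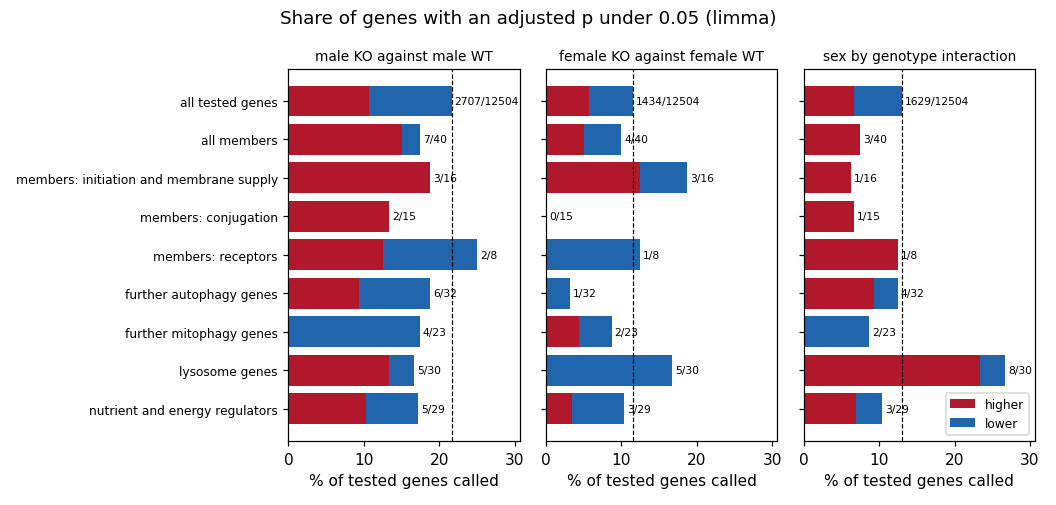
Percent of tested genes with an adjusted p under 0.05 in the male KO comparison, the female KO comparison and the sex by genotype interaction, split into higher (red) and lower (blue), with the number of genes beside each bar. The dashed line is the share over all tested genes (21.6%, 11.5% and 13.0%), above the share of the 40 members in each panel.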

How the data were processed

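The authors quantified reads with Salmon (version 1.10.1 in the submitters' processing notes) against GRCm38 and deposited TPM per gene, in which the depth is not kept. No column was left unused. Identifiers were given symbols from GENCODE release M21, to which 99.4% matched. As such values allow no count test, limma 3.58.1 (R 4.3.3) was fitted to log2(TPM+1), using its mean-variance trend, for 12504 genes averaging 1 TPM or more, and p-values were adjusted over all of them (Benjamini-Hochberg). Fold changes on this scale understate those of low genes. Male KO and WT, female KO and WT, and the 2 WT groups were compared in fits of 6 libraries, and the interaction in 1 fit of 12. The code was tested on simulated data. The members and lists were chosen with earlier results of these data known. Named with values are members past the threshold in a KO comparison or the interaction, and Ulk1, Ulk2, Nbr1 and Bnip3, and, of each further list, the 3 largest changes past the threshold (Lipa in females by its difference only). Other list genes, Atg14, Atg7 and members with separated groups were named after their values were seen. Alternatives were a pseudocount of 0.1, quantile normalization, median-of-ratios scaling, no filter or a minimum mean of 5 TPM, no trend, 1 fit of all libraries, a replicate block and leaving out each library. For the further lists the same alternatives were added after the data were seen. The lists hold 2 genes not analysed here. The values of 1 lysosome gene are not reported here.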

Additional observations from a re-analysis of the deposited data

Results flagged for a closer look

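The KO effect differed between the sexes, by limma's interaction over all 12 libraries with an adjusted p under 0.05, for 3 of the 40 genes. That share of 7.5% lay below the 13.0% of all tested genes. The male minus female log2 difference was 1.10 for Bnip3, 0.56 for Rb1cc1 and 0.29 for Gabarap. Among the named genes of the further lists it was 1.11 for Retreg1, 0.58 for Wdr45, 0.49 for Npc1, 0.46 for Lipa, 0.36 for Sesn2 and 0.30 for Ddit4, and -0.83 for Epg5 and -0.33 for Rab7. The male WT and female WT libraries of Epg5 already differed by 0.90 and those of Wdr45 by -0.43 on the log2 scale (limma adjusted p = 0.000428 and 0.0182). The calls of Rb1cc1, Sesn2 and Ddit4 were lost in 9, 9 and 13 of 19 alternatives, and those of the other 8 genes were kept in all 19. Groups of 3 libraries were not searched for single outlying samples.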

How the results depend on the processing

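In males the number of members past the threshold was 5 to 9 under all alternatives, and the calls of Ulk2, Rb1cc1, Wipi1, Gabarap and Bnip3 were kept in all 14. Over all tested genes the male number was 1813 to 3306 under the alternatives, against 2707 in the main fit. No value of a member past the threshold changed sign. In females the number of members fell from 4 to 1 without the filter on low values and to 0 with the replicate block. It was 0 to 2 when 1 library was left out. The female number over all genes fell too, from 1434 of 12504 to 1126 of 22401, 670 of 12504 and 774 to 835 of 12504 in the same order. The members numbered 2 without WT replicate 1 (Wipi2 and Bnip3l) or KO replicate 2 (Ulk2 and Wipi1). They numbered 0 without any other female library, where 7 to 9 members had an unadjusted p under 0.05 in limma. With the block 10 had one. Between the WT groups the number was 1 without the filter, 1 without the mean-variance trend, 1 with the replicate block, 6 with all 12 libraries in one fit and 0 to 1 when 1 library was left out (limma, with 9 to 12 at an unadjusted p under 0.05), being 0 without female WT replicates 2 or 3. Over all genes the WT comparison gave 1275 of 22401 without the filter, and of 12504 genes 1375 without the trend and 1114 with the block. It gave 1968 with all libraries in one fit and 1037 to 1243 without 1 library, against 1603 in the main fit. The interaction passed for 2 to 4 members and for 1353 to 1695 of all genes, against 1629 in the main fit. Of the named list genes, Mitf, Usp15, Nipsnap1 and Tpp1 in males lost their call in 3 of 13, 2, 7 and 7 of 14 alternatives, and Ddit4, Nipsnap1 and Tpp1 in females in 5, 2 and 6 of 14. The replicate block gave 6 members in males and 3 in the interaction, against 2366 and 1518 of the 12504 tested genes. Deviations of same-numbered libraries correlated across genes with r from -0.032 to 0.078. Whether the numbers share a signal was not tested. The 61 results followed across settings were log2 fold changes past the threshold and counts of genes past it. Of their alternative values, 713 kept the call or gave a similar count. Another 212 lost the call or gave a clearly lower count, and 8 gave a clearly higher count. The depth of each library is not kept in TPM, and changes smaller than about 0.25 on the log2 scale were often within the 95% interval of a member.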
